A study of Homo sapiens with 8 samples.

Results

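Interferon-stimulated genes are the genes that cells switch on when an interferon reaches its receptor, and 49 of them were followed here among 19974 protein-coding genes. They were chosen by name as a family of antiviral and interferon-response genes, with earlier results of these data known. Their shares beside those of all genes are therefore descriptive. A peak was assigned to a gene when it overlapped the gene body with 5000 bp on both sides, called its locus, or lay within 1000 bp of either annotated end of the gene, called a gene-end peak. All 49 names were found in the gene annotation. Their loci held 70 distinct peaks with ATRA+POM, 61 with POM, 47 with ATRA and 55 with DMSO, out of 47193, 54279, 36742 and 50946 peaks in those lists.

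The cells were OPM-2, an established human multiple myeloma line that carries the t(4;14) translocation. All groups were grown for 72 h, with 1 µM all-trans retinoic acid and 1 µM pomalidomide together (ATRA+POM), with 1 µM pomalidomide (POM), with 1 µM all-trans retinoic acid (ATRA), or with the solvent DMSO alone. Retinoic acid is the ligand of the retinoic acid receptors, and pomalidomide makes the cereblon ubiquitin ligase degrade the transcription factors IKZF1 and IKZF3. Each treatment had 1 chromatin immunoprecipitation (ChIP) library and 1 input library, and the labels do not name the antibody. With 1 ChIP library a group there was no spread between replicates and no test of a treatment could be made, so all differences below describe these libraries.

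The value used most is the authors' fold enrichment, the ratio of the signal at a peak's summit to the local background of the same library. Summit reads are the reads that overlap the summit, recovered from the fold enrichment and the p-value of the peak. The sequencing depth behind the lists, inferred from the peak values and relative to DMSO, was 0.902 for ATRA+POM, 0.927 for POM and 0.133 for ATRA, so the ATRA library stands apart and its missing peaks are weak evidence. The median peak had 65, 72, 23 and 78 summit reads in the ATRA+POM, POM, ATRA and DMSO libraries. CYP26A1, a retinoic acid clearing enzyme and a classic retinoid target, had 396 summit reads at its gene ends with ATRA+POM, 52 in the POM list, 45 with DMSO and no peak with ATRA, so the 3 other lists have the peak and the library labelled ATRA lacks it. Scaled to the ATRA depth, the ATRA+POM reads of CYP26A1 come to 58.4, well above the weakest ATRA peaks, and the DMSO reads to 5.99, near them. The library labelled ATRA thus shows no sign of the retinoid at this gene, and whether its label is right was not tested. All 7 plasma cell genes checked, among them SDC1 and TNFRSF17, had a gene-end peak in each list. Of 8 genes of T cells, monocytes and hepatocytes, CD3E had one with POM and no other had one in any list.

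When a type I interferon binds its receptor, the kinases JAK1 and TYK2 activate STAT proteins, and STAT2 joins IRF9 in a complex that binds a short DNA element in the promoters of target genes, the interferon-stimulated response element (ISRE). The targets include sensors of viral RNA, enzymes that destroy or edit RNA, proteins that trap virus particles and the transcription factors of the pathway itself. In B lineage cells IKZF1 and IKZF3 act on many genes, and in myeloma cells both have been described as repressors of interferon-stimulated genes.

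Promoter sequence from RefSeq (build GRCh38.p14, 250 bases before and 50 bases after the start) was matched for 36 of the 49 genes. The core of the ISRE, 2 copies of GAAA with any 2 bases between them on either strand, was in the promoter of 24 of the 36 (66.7%), against 658 of 15813 protein-coding genes with a promoter (4.16%). A related element bound by ETS and IRF factors together, GGAA and GAAA with any 2 bases between them, was in 10 of the 36 (27.8%), against 533 of all genes (3.37%), and 28 of the 36 (77.8%) had either of the pair, against 7.18% of all genes. Matches of the pair can overlap, as they do at the downstream start of IFIT3. The GAS element TTCNNNGAA of interferon gamma signalling was in 8 of 36 (22.2%, against 8.97% of all genes), the Ikaros core TGGGAA in 7 (19.4%, against 28.1%), and the retinoid half-site AGGTCA in 4 (11.1%, against 15.3%). The repeat of that half-site in direct orientation with 5 bases between was in none of the 36 and in 1 of all genes. A match describes letters and says nothing of binding.

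The promoters below are those of the 4 genes in the promoter table that had a gene-end peak with POM and none with DMSO, and of OAS1, which had the highest ratio of POM to DMSO among these genes and was picked after its values were seen. Capitals mark matches to the ISRE core or the ETS-IRF composite. The windows are RIGI at chr9:32526147-32526446 (minus strand), IFI6 at chr1:27672143-27672442 (minus strand), IFIT3 at chr10:89327747-89328046 (plus strand), GBP1 at chr1:89065159-89065458 (minus strand) and OAS1 at chr12:112906712-112907011 (plus strand).
RIGI: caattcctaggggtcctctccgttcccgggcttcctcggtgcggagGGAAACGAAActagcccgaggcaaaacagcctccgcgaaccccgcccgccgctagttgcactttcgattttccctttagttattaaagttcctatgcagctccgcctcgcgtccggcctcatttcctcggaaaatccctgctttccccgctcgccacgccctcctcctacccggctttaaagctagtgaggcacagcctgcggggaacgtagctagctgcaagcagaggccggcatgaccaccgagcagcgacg
IFI6: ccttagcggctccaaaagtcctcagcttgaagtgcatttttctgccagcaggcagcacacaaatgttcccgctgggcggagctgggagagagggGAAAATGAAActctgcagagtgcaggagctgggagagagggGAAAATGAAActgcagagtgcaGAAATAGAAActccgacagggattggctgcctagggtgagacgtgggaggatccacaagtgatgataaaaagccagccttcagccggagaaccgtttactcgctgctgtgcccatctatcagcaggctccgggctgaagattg
IFIT3: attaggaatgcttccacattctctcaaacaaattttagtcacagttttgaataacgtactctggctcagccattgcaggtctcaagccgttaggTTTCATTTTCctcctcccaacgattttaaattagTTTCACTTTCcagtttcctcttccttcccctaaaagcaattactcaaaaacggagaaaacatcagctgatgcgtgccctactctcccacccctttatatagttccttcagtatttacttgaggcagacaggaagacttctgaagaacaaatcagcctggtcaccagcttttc
GBP1: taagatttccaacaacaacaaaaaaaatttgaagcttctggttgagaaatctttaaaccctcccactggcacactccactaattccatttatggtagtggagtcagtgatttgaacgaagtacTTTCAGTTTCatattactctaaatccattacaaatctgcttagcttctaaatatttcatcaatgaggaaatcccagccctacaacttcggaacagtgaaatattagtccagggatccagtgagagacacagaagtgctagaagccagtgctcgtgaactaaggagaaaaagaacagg
OAS1: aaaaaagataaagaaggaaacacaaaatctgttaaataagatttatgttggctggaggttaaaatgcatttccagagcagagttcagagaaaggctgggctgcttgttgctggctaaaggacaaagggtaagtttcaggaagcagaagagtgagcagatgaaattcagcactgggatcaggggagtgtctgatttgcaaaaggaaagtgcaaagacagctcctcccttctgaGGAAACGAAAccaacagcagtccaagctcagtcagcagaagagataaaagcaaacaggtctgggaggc
RIGI and OAS1 carry the composite GGAAACGAAA and no ISRE core as spelled here, IFI6 carries 3 cores, IFIT3 carries a pair of cores in the promoter shown, and GBP1 carries 1.

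Gene-end peaks were called at 24 of the 49 genes with ATRA+POM (49%, against 41.3% of all genes), 28 with POM (57.1%, against 47.9%), 18 with ATRA (36.7%, against 40.0%) and 24 with DMSO (49%, against 48.8%). In all, 29 of the 49 had one in some list (59.2%, against 51.0% of all genes) and 17 had one in each of the 4 lists (34.7%, against 37.3%). The 20 without one include ISG15, the ubiquitin-like modifier of the response, MX1, an antiviral GTPase, IFI27, IFI44, IFI44L, IFIT2, CXCL10, a chemokine, and all 3 IFITM genes, which encode membrane proteins that block viral entry. For 15 of these 20 the whole locus held no peak in any list, and the other 5, GBP4, GBP5, OAS3, RSAD2 and TRIM22, had peaks away from their gene ends. Absence of a peak was not absence of the element, since 10 of the 12 among those 15 with promoter sequence had the ISRE core or the composite. The median fold enrichment of the members' strongest gene-end peaks was 14.8 with ATRA+POM, 21.4 with POM, 13.5 with ATRA and 16.1 with DMSO, beside 13.6, 23.7, 16.5 and 22.4 for all genes with such a peak.

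**Figure D1:**
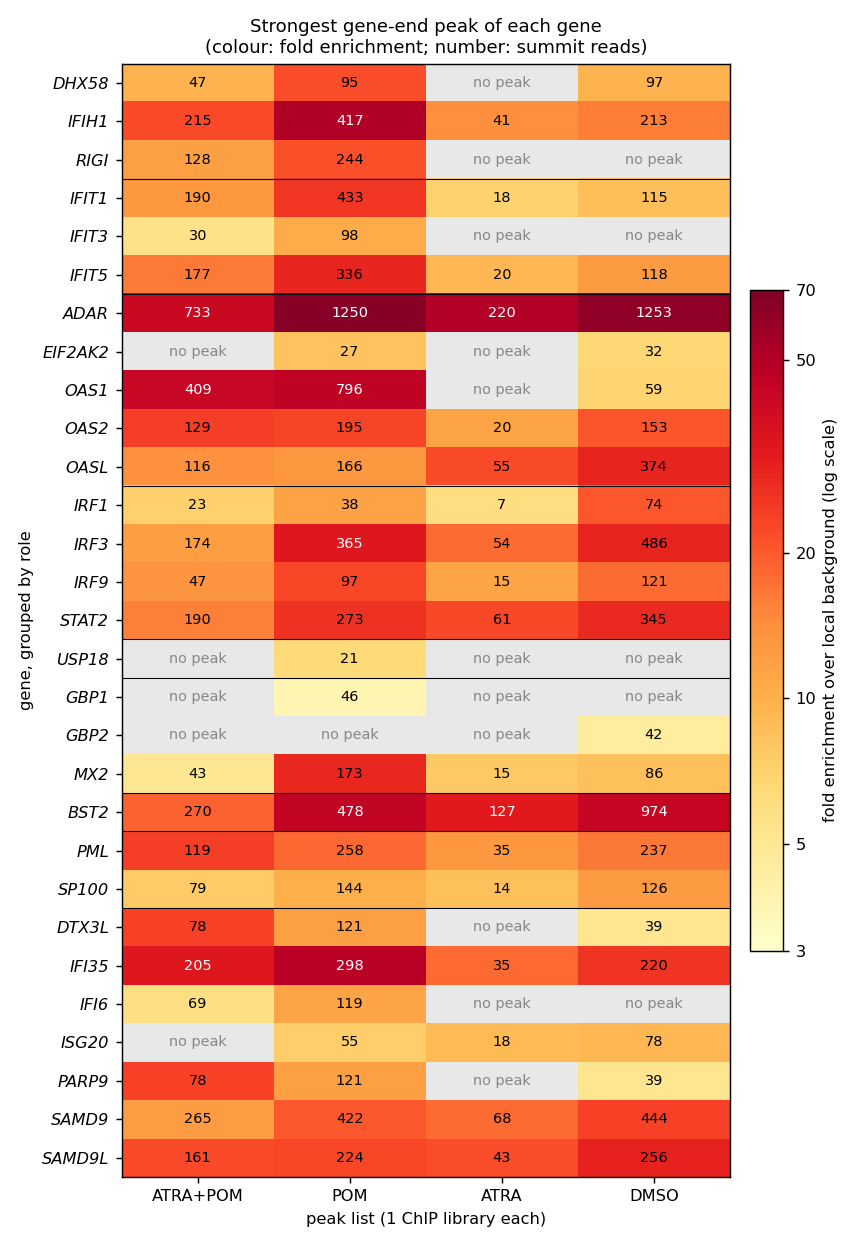
Heat map of the 29 genes with a gene-end peak in some list, in rows grouped by role, against the 4 peak lists in columns. Colour is the fold enrichment of the strongest gene-end peak on a log scale, the number is its summit reads, and grey cells had no peak. RIGI, IFI6 and IFIT3 have values with ATRA+POM and POM and no peak with ATRA or DMSO, and OAS1 stands at 42.0 and 45.2 with ATRA+POM and POM, against 6.86 with DMSO.

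The POM and DMSO lists bear on pomalidomide alone. Gene-end peaks that the POM list has and the DMSO list lacks were found at 5 of the 49 genes (10.2%), where 1.94% of all genes had such a change. The 5 were RIGI, IFI6, IFIT3, GBP1 and USP18. The reverse was seen at 1 gene, GBP2 (2.04%, against 2.90% of all genes). Of the 22 genes with an overlapping gene-end peak in both lists, 8 had a ratio of fold enrichment at least 2 times above the median ratio of all genes, where 6.94% of 9067 genes did, and 1, OASL, was at least 2 times below it, where 7.50% did. The 8 were IFIH1, DHX58, IFIT1, IFIT5, OAS1, MX2, PARP9 and DTX3L, of which DHX58 did not pass the limit by summit reads. PARP9 and DTX3L share the same peak and ratio, so they are not separate observations. The median log2 ratio of POM over DMSO was 0.26 over the 22 genes and 0.12 over all genes.

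The ATRA+POM and DMSO lists bear on both compounds given together. Gene-end peaks found in the ATRA+POM list and missing from the DMSO list lay at RIGI, IFI6 and IFIT3, 3 of 49 genes (6.12%, against 0.896% of all genes), and the opposite held at 3, GBP2, EIF2AK2 and ISG20 (6.12%, against 8.44%). Of RIGI, IFI6 and IFIT3, RIGI alone stayed in this group under every alternative for gene ends given below. Of 21 genes with the peak in both lists, 9 had a ratio at least 2 times above the median of all genes (8.28% of 8006 genes) and 0 at least 2 times below it (7.76%). The median log2 ratio was −0.41 over the 21 genes and −0.80 over all genes, so fold enrichment was lower with ATRA+POM across the whole list and each ratio is read against that shift. The 9 were OAS1, PARP9, DTX3L, IFIT5, IFIT1, PML, IFIH1, IFI35 and OAS2, of which PML and OAS2 did not pass the limit by summit reads. Here too PARP9 and DTX3L share the peak. Both comparisons use the same DMSO library, so their values stand side by side and are not independent.

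**Figure D2:**
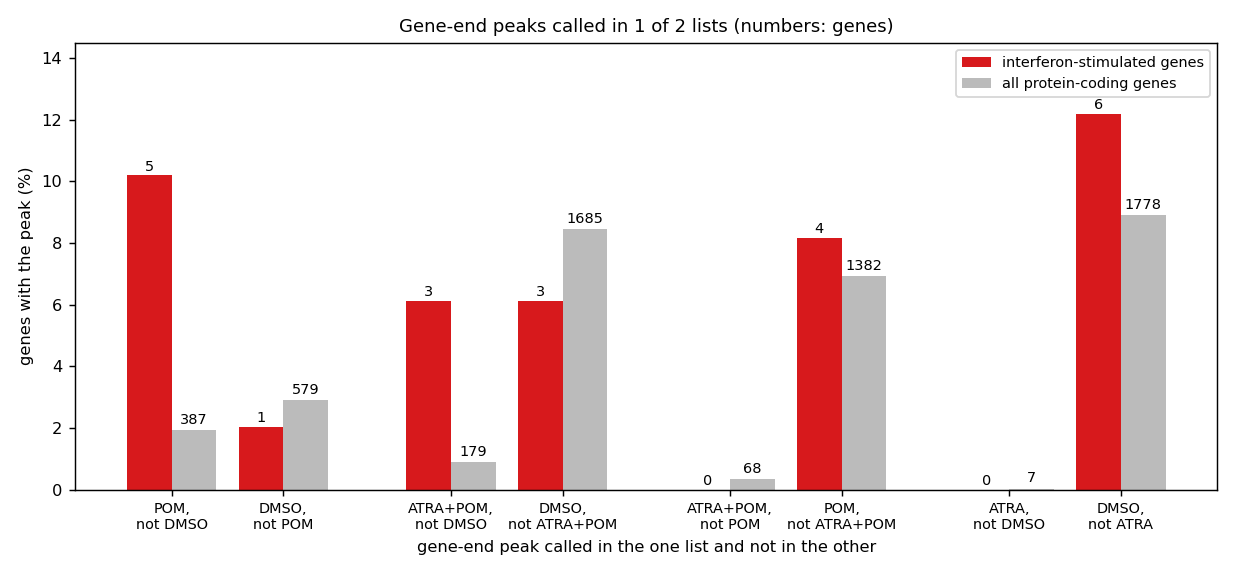
Bars give the percent of genes with a gene-end peak called in one list and not in the other, for the 49 interferon-stimulated genes and for all 19974 protein-coding genes, with the number of genes above each bar and the vertical axis starting at 0. The pair for POM without DMSO reads 10.2% and 1.94%, and the pair for ATRA+POM without DMSO reads 6.12% and 0.896%.

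The sensors of viral RNA had peaks at their starts in both lists with pomalidomide. RIGI, which recognises short RNA with a triphosphate end, had a gene-end peak of 128 summit reads with ATRA+POM and 244 with POM, and none with ATRA or DMSO. The POM peak spans (hg38) chromosome 9, 32526317 to 32526642, with a fold enrichment of 21.1, and its summit lies 283 bp upstream of the start. It ranked within the top 19.2% of the POM list, and 244 reads is well above the 28 reads that 10% of DMSO peaks fall under. IFIH1, the sensor MDA5 of long double-stranded RNA, had 215 reads with ATRA+POM, 417 with POM, 41 with ATRA and 213 with DMSO, at fold enrichments of 22.1, 50.3, 14.0 and 15.8. Its ratio of POM to DMSO, 3.19, exceeded that of 98.3% of genes. DHX58, the regulator LGP2, had 47 reads with ATRA+POM, 95 in the POM list and 97 with DMSO, and no peak with ATRA. Its fold enrichment was 9.63, 21.6 and 9.58 in those 3 lists, so the higher POM value came with a near equal number of reads and a lower local background. The gene ends of GCA and KAT2A lie within 1000 bp of the IFIH1 and DHX58 peaks, and the lists cannot assign a peak to one gene.

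The IFIT genes stand next to each other on chromosome 10 and encode proteins that bind viral RNA. IFIT1 had a gene-end peak of 190 summit reads with ATRA+POM, 433 with POM, 18 with ATRA and 115 with DMSO, at fold enrichments of 12.9, 25.5, 7.07 and 8.57. IFIT5 had 177, 336, 20 and 118 reads in the same order of lists, and fold enrichments of 16.2, 28.9, 9.25 and 12.4. The IFIT5 peak used with ATRA+POM lies upstream of the start, and those used with ATRA and DMSO lie just inside the gene. The gene LIPA ends within 1000 bp of the IFIT5 peaks. Both genes were highest with POM and lowest, in reads, in the shallow ATRA library. IFIT3 differs between its starts. At the upstream start, whose promoter is printed above, a peak of 30 reads was called with ATRA+POM and of 98 with POM, and none with ATRA or DMSO. At a second start farther into the gene, at position 89332529, a peak was called in every list, and the one with its summit nearest after that start had 155 reads with ATRA+POM, 456 with POM, 30 with ATRA and 165 with DMSO. The change in the call at IFIT3 therefore concerns the upstream start. IFIT2, in the same cluster, had no peak in any list.

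Among the enzymes that act on double-stranded RNA, OAS1 had the highest ratio to DMSO of all members in both comparisons. OAS1 (chromosome 12, 112906962 to 112933219) makes the messenger that activates RNase L. Its strongest gene-end peak had 409 summit reads with ATRA+POM, 796 in the POM list and 59 with DMSO, and no peak was called with ATRA. The fold enrichments, 42.0 with ATRA+POM, 45.2 in the POM list and 6.86 with DMSO, put the peak in the top 4.84%, 4.14% and 60.2% of those lists. The ratio to DMSO was 6.12 with ATRA+POM and 6.59 with POM, and the second exceeded that of 99.9% of genes. OAS2 had 129 reads with ATRA+POM, 195 with POM, 20 with ATRA and 153 with DMSO, with fold enrichments of 24.1, 23.1, 11.2 and 20.6, and OAS3 had no gene-end peak in any list, although the OAS2 peak falls in its flank. OASL, a relative of the OAS enzymes without their activity, went the other way with POM. It had 116, 166, 55 and 374 reads and fold enrichments of 13.9, 12.9, 21.9 and 29.4 with ATRA+POM, POM, ATRA and DMSO. Its ratio of POM to DMSO, 0.437, was at least 2 times below the median of all genes, but not by summit reads. The ratio of ATRA+POM to DMSO, 0.473, was within 2 times of the median of all genes for that comparison. The OAS family was therefore not uniform: OAS1 was higher with POM than with DMSO, OAS2 was close to equal in fold enrichment, and OASL was lower.

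ADAR, which edits adenosine in double-stranded RNA, had the strongest gene-end peak among the members, with 733, 1250, 220 and 1253 reads and fold enrichments of 41.4, 66.0, 49.6 and 62.2 with ATRA+POM, POM, ATRA and DMSO. Its POM and DMSO values were close to equal. EIF2AK2, the kinase PKR that halts translation, had weak peaks at different ends of the gene, 27 reads at the start with POM and up to 33 reads at the other end with DMSO, where GPATCH11 also lies within 1000 bp.

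Among the transcription factors of the pathway, STAT2, IRF9 and IRF3 were mostly alike in POM and DMSO. STAT2 had 190 summit reads with ATRA+POM, 273 with POM, 61 with ATRA and 345 with DMSO, at fold enrichments of 15.7, 26.3, 22.3 and 28.2. IRF9, its partner, had 47, 97, 15 and 121 reads in the same order. IRF3, which carries the signal from the sensors to the interferon genes, had 174, 365, 54 and 486 reads. The ratio of POM to DMSO in fold enrichment was 0.931 for STAT2, 1.27 for IRF9 and 1.13 for IRF3, all within 2 times of the median of all genes. IRF1, a factor induced by interferon gamma, held the most peaks of any member in 1 list, 7 with ATRA+POM, against 4 with POM, 2 with ATRA and 5 with DMSO, though its strongest locus peak had 78, 105, 13 and 262 reads in those lists. The DMSO summit of the strongest IRF1 peak lies at −7871 bp from the nearest start, against −4931 bp with ATRA+POM. More peaks with ATRA+POM than with DMSO thus went with fewer summit reads in the strongest one, which lay at another position. ADAR held 7 locus peaks with ATRA, against 2 with DMSO, but all 7 lie inside the 2 broad DMSO peaks of 3362 and 3717 bp. The strongest ADAR peak had its summit at −160 bp with ATRA and −138 bp with DMSO. The higher count at ADAR is therefore not a count of added sites. At the gene end of IRF1, the peak with its summit just inside the start had 30 reads and a fold enrichment of 9.04 with POM. With DMSO that peak had 74 reads and 20.4. Farther into the gene, the POM peak of 38 reads had a fold enrichment 1.55 times that of the DMSO gene-end peak it overlaps. IRF7 had no peak in any list. RNF31 ends within 1000 bp of the IRF9 peaks, BCL2L12 of the IRF3 peaks and APOF of a STAT2 peak.

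The large GTPases and the ISG15 system held few peaks. MX2, which blocks the nuclear import of retroviruses, had 43 summit reads with ATRA+POM, 173 with POM, 15 with ATRA and 86 with DMSO, at fold enrichments of 4.99, 28.7, 7.76 and 8.51. Its ratio of POM to DMSO was 3.37, and its ratio of ATRA+POM to POM, 0.174, was lower than that of all but 1.04% of genes. GBP1, a guanylate binding protein, had a peak of 46 reads at its start with POM alone, and GBP2 had a peak of 42 reads at 1 end with DMSO alone. Both peaks are weak, at 83.4% of the way down the POM list and 80.3% down the DMSO list. USP18, which removes ISG15 and dampens the receptor, had 21 reads with POM and no peak elsewhere, under the 26 reads that 10% of POM peaks fall below. Neither GBP1 nor USP18 was called with POM but not DMSO when lists of equal length were used. HERC5, the main ligase for ISG15, and its relative HERC6 had no peak in any list.

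PARP9 and DTX3L, partners in a ubiquitin ligase complex, share a divergent promoter on chromosome 3 and the same peaks. The strongest had 78 summit reads with ATRA+POM, 121 in the POM list and 39 with DMSO, and none was called with ATRA. Fold enrichments were 23.6, 11.8 and 5.19 in those lists. The value with ATRA+POM rests on a local background of 2.35 reads, against 9.31 with POM, and by reads alone ATRA+POM was below POM. IFI6, a mitochondrial protein that delays cell death, had 69 reads with ATRA+POM and 119 with POM upstream of its start, and no peak with ATRA or DMSO. With POM a second peak of 60 reads lay on the other side of the IFI6 start.

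The 7 genes that follow had ratios of POM to DMSO within 2 times of the median of all genes, and 6 of them were called in each list. BST2, or tetherin, which holds virus particles at the cell surface, had 270 summit reads with ATRA+POM, 478 with POM, 127 with ATRA and 974 with DMSO, at fold enrichments of 18.8, 44.4, 32.2 and 42.4. The BST2 value with POM is from a summit at −609 bp from the start, while the ATRA+POM, ATRA and DMSO summits lie at 127, 124 and 102 bp. The POM peak with its summit at 129 bp had 486 reads and a fold enrichment of 28.8. The DMSO peak is a single block of 4618 bp and lies within 1000 bp of the neighbour MVB12A, while the other lists hold 2 or 3 shorter peaks there. SAMD9, a restriction factor of poxviruses, had 265, 422, 68 and 444 reads in the same order, and its neighbour SAMD9L had 161, 224, 43 and 256. IFI35 had 205, 298, 35 and 220 reads and fold enrichments of 33.2, 47.3, 18.0 and 25.9. PML, the scaffold of nuclear bodies, had 119, 258, 35 and 237 reads, and STOML1 lies within 1000 bp of a PML peak. SP100, a partner of PML in those bodies, had 79, 144, 14 and 126 reads. ISG20, an exonuclease, had a peak at its most upstream annotated start with 55 reads with POM, 18 with ATRA and 78 with DMSO and none with ATRA+POM. Near a second start of ISG20, inside the gene, a peak was called in each list, with 27 reads with ATRA+POM, 54 with POM, 18 with ATRA and 101 with DMSO.

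**Figure D3:**
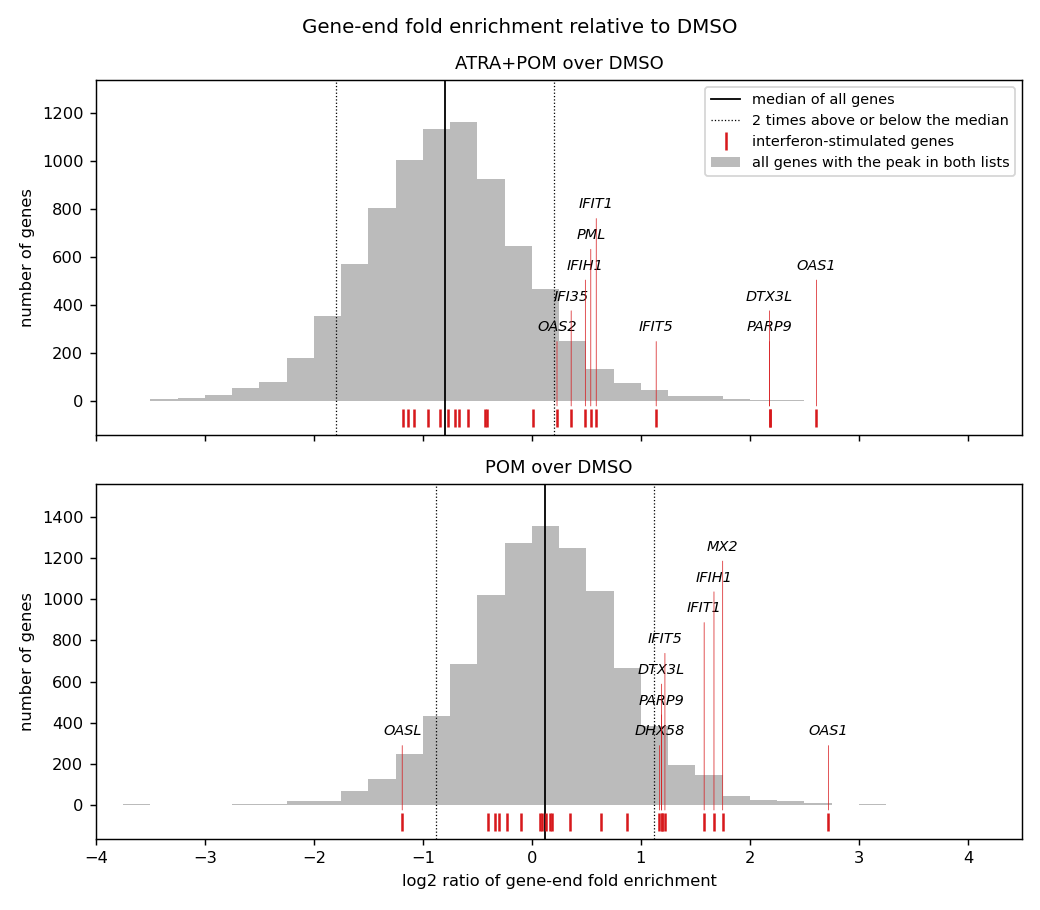
Histograms of the log2 ratio of gene-end fold enrichment, ATRA+POM over DMSO above and POM over DMSO below, for all genes with the peak in both lists, with red ticks for the interferon-stimulated genes, a solid line at the median of all genes and dotted lines 2 times above and below it. Named ticks lie outside the dotted lines: OAS1 is farthest right in both panels at 2.61 and 2.72, and OASL at −1.19 is the one named gene on the left for POM.

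The ATRA+POM and POM lists bear on retinoic acid in cells that also had pomalidomide. No gene-end peak of the ATRA+POM list was missing from the POM list (0 of 49, against 0.340% of all genes), and 4 of the POM list were missing from the ATRA+POM list, at GBP1, EIF2AK2, ISG20 and USP18 (8.16%, against 6.92%). RIGI, IFI6 and IFIT3, called in both lists, had ATRA+POM to POM ratios of 0.561, 0.512 and 0.534, and those of IFIT1 and IFIT5 were 0.504 and 0.559. These are close to the median of all genes, −0.90 on the log2 scale. OAS1 was higher than that shift, at a ratio of 0.929. Of 24 genes in both lists, 4 (PARP9 and DTX3L, which share a peak, OASL and PML) were at least 2 times above the median, beside 5.27% of all genes. In 1, MX2, the ratio was at least 2 times below it, beside 5.84%. With summit reads in place of fold enrichment, 0 were above and MX2 was again below.

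The library labelled ATRA was set against DMSO, with the doubt about its label that CYP26A1 raises. No gene-end peak of the ATRA list was missing from the DMSO list (0 of 49, against 0.0350% of all genes). The DMSO list had one at 6 genes where the ATRA list had none (12.2%, against 8.90%). These were GBP2, EIF2AK2, OAS1, DHX58, and PARP9 and DTX3L, which share a peak. Depth limits this comparison. The DMSO reads of OAS1, PARP9 and DHX58, scaled to the ATRA depth, come to 7.85, 5.19 and 12.9, where 10% of ATRA peaks had fewer than 11 reads and the weakest had 5. Of the 18 genes with the peak in both lists, 0 were at least 2 times above the median of all genes (1.34%) and 0 at least 2 times below it (3.19%). The log2 ratios of IFIT1, IFIT5 and IFIH1 were −0.28, −0.42 and −0.17, beside a median of −0.59 over all genes.

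Peaks anywhere at the members' loci were also matched between lists. Of the 61 POM peaks there, 18 (29.5%, 95% Wilson interval 19.6 to 41.9) had no overlapping DMSO peak, beside 23.9% of POM peaks at all gene loci. Of the 55 DMSO peaks there, 7 (12.7%, 6.30 to 24.0) had no POM counterpart, beside 26.1%. With ATRA+POM, 13 of 70 peaks (18.6%, 11.2 to 29.2) had no DMSO counterpart, beside 17.5%, and 11 of the 55 DMSO peaks (20.0%, 11.6 to 32.4) had no ATRA+POM counterpart, beside 42.3%. Between ATRA+POM and POM, 4 of 70 peaks (5.71%, 2.24 to 13.8) and 16 of 61 (26.2%, 16.8 to 38.4) were unmatched, beside 7.69% and 35.1%. Between ATRA and DMSO, 1 of 47 (2.13%, 0.377 to 11.1) and 25 of 55 (45.5%, 33 to 58.5) were unmatched, beside 0.299% and 45.9%. These intervals cover counting error only, and reads without molecular identifiers are not independent molecules. The peaks are not independent of each other either, since a broad peak in a list can overlap several narrow ones in another. The intervals therefore test no treatment.

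The ISRE and ETS-IRF matches were set against the peak calls, a grouping made after the values were seen. Of the 13 genes that were in the POM list and not the DMSO list or had a ratio at least 2 times above the median, 10 had promoter sequence. The ISRE core was in 8 of the 10, and the core or the composite in all 10. For the core or the composite, the share was 77.8% of the 36 members with promoter sequence and 7.18% of all genes. PARP9 and DTX3L are both among the 10 and share a promoter and its matches. Of the 16 other genes with a gene-end peak in some list, 11 had promoter sequence, 4 held the ISRE core and 5 held the core or the composite. ADAR, IRF1, IRF9, SAMD9L, SP100 and STAT2 held neither. Summits mostly lay away from the element. Matches were counted for each start, so a core shared by neighbouring starts, as at IFI27, IFI44 or PARP9 and DTX3L, counts more than once. Among ISRE matches with a peak within 1000 bp of the start, the nearest summit was a median of 212 bp away with ATRA+POM, 214 bp with POM, 214 bp with ATRA and 188 bp with DMSO. In the ATRA+POM list 10 of 47 ISRE matches fell in the gap between called peaks, 9 lay beside a peak, 3 inside one and 25 at starts with no peak. With POM the numbers were 5, 3, 15 and 24. At IFI6 the 3 cores lie between the POM peaks on each side of the start, and at OAS1 the composite lies between peaks with ATRA+POM, POM and DMSO.

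**Figure D4:**
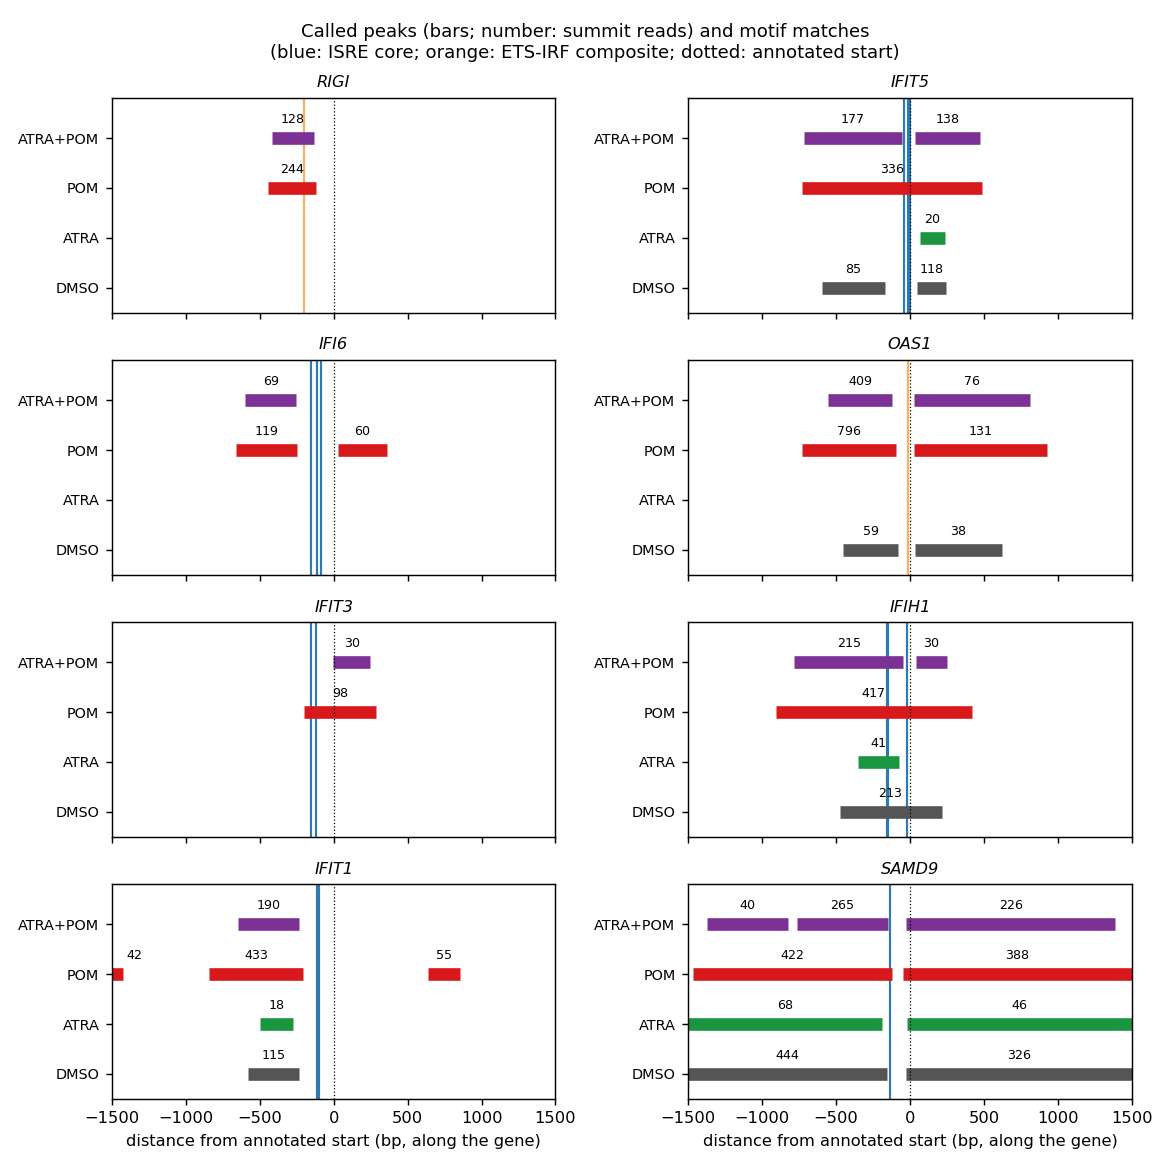
Called peaks (bars, with their summit reads) within 1500 bp of an annotated start of 8 genes picked after their values were seen, by list, with the horizontal axis in bp along the gene, blue lines at ISRE cores and orange lines at ETS-IRF composites. RIGI, IFI6 and IFIT3 show bars with ATRA+POM and POM alone, and at OAS1 the upstream bar has 409 and 796 reads with ATRA+POM and POM, against 59 with DMSO.

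Of 37 other genes of the interferon pathway, including receptors, kinases, adaptors and the interferons, 21 had a gene-end peak with ATRA+POM, 24 with POM, 21 with ATRA and 25 with DMSO. Of all genes, 41.3%, 47.9%, 40.0% and 48.8% had one in those lists. UBA7, the activating enzyme of ISG15, was the 1 gene of the 37 that had a gene-end peak with POM and not with DMSO, beside 1.94% of all genes. It had 222 summit reads with POM and 74 with ATRA+POM. The reverse held at 2, IFNGR2 and UBE2L6, beside 2.90% of all genes. SOCS3, a feedback inhibitor, had 29 reads with ATRA+POM and no peak elsewhere. UBA7 and SOCS3 were the 2 genes with a gene-end peak with ATRA+POM and not with DMSO, beside 0.896% of all genes. IFNGR1, a receptor chain of interferon gamma, had 50 reads with POM, 15 with ATRA and 96 with DMSO. It was 1 of 6 genes in the DMSO list and not in the ATRA+POM list, beside 8.44% of all genes. Of the 22 with an overlapping peak in both POM and DMSO, 0 were at least 2 times above the median of all genes, beside 6.94% of all genes. At least 2 times below it were 4, beside 7.50%: TLR7, TLR9, IFNGR1 and IL10RB. TLR7, a sensor of single-stranded RNA, had 138 reads with ATRA+POM, 67 with POM, 70 with ATRA and 463 with DMSO. IL10RB, a chain of the interferon lambda receptor, had 302, 296, 106 and 740 reads in the same order of lists. For both, ATRA+POM and POM were below DMSO in reads. Summit reads were lower with ATRA+POM across all genes, with a median log2 ratio to DMSO of −1.2. For ATRA+POM over DMSO, 1 of 17 pathway genes, IRF2, had a fold ratio at least 2 times below the median, beside 7.76% of all genes. TLR7 and IL10RB did not. Their DMSO reads scaled to the ATRA depth, 61.6 and 98.4, were close to the ATRA values. The receptor genes IFNAR1 and IFNAR2 had 115 and 360 reads with ATRA+POM, 250 and 801 with POM, 45 and 147 with ATRA, and 308 and 945 with DMSO. IKBKE, a kinase that activates IRF3, had gene-end peaks of 562 reads with ATRA+POM and 824 with POM, and a peak of 68 reads with DMSO. The DMSO peak does not overlap the others, so IKBKE is not among the 22 and its higher POM value is not in that count. Among the interferons themselves, IFNB1, IFNA1, IFNA2 and IFNG had no peak in any list, while IFNL1 had a gene-end peak of 533 reads with ATRA+POM, 877 with POM, 145 with ATRA and 857 with DMSO.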

How the data were processed

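Each of the 4 ChIP libraries had a deposited list of peaks in 10 unnamed columns. Per the labels' protocols, crosslinked chromatin was sheared, immunoprecipitated and sequenced as DNA nanoballs. Positions are on hg38, as the submitters' processing notes give it, and the sources used here name no aligner, peak caller or antibody. The deposited score is 10 times the −log10 p of a peak, cut to a whole number for nearly all peaks. The deposited fold enrichment is a ratio within 1 library and is not scaled between libraries. The −log10 p and −log10 q are the authors' values, and no deposited −log10 p was under 5. Peaks were called per library.

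Chromosomes 1 to 22 and X were kept, with gene and start positions from RefSeq (GRCh38.p14). Summit reads were solved from fold and p under a Poisson model and were whole within 0.02 for all peaks but 1, in the POM list. Relative depth is the lowest background seen in 20 or more peaks over the narrowest peak's width. Both are inferences from the values. The strongest peak is the one with the highest −log10 q, and its position can differ between lists. Ratios use overlapping gene-end peaks and are set against the median of all genes.

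The members, lists, roles and the 2 times limit were chosen with earlier results of these data known. Values are given for members whose gene-end call differs between lists, the 6 strongest called in all 4 lists, and those with most peaks. Others were named after their values were seen. Reads and overlaps were tested on simulated data and against bedtools 2.31.1. Python 3.11.15, numpy 2.4.6, pandas 2.3.3, scipy 1.17.1 and matplotlib 3.10.9 were used. Alternatives were an equal number of 36742 strongest peaks, the stronger 50% of each list, windows of 3000 bp, an overlap of 50% and the gene body alone. Start sites alone and summit reads in place of fold were added after seeing the data.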

Additional observations from a re-analysis of the deposited data

Results flagged for a closer look

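PARP9 and DTX3L stood apart because their call was missing in one retinoid comparison and their fold enrichment was high in the other. Their shared gene-end peak was called with DMSO (39 summit reads) and not with ATRA, while with ATRA+POM its fold enrichment over POM was 1.89 above the median of all genes on the log2 scale for both PARP9 and DTX3L. The difference was not tested. The pair counts as 1 observation, since both genes share the peak. The DMSO reads scaled to the ATRA depth come to 5.19, near the 5 reads of the weakest ATRA peak, so the missing call is not a measured decrease. By summit reads the pair was not above the median limit, with 78 with ATRA+POM and 121 with POM.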

How the results depend on the processing

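The count of 5 genes called with POM but not DMSO stayed at 4 to 6 under each alternative, but the names changed. With an equal number of strongest peaks they were RIGI, IFI6, IFIT3, and PARP9 and DTX3L, which share a peak, and GBP1 and USP18 dropped out. RIGI and IFI6 were among them under all 4 alternatives for gene ends, and IFIT3 under all but start sites alone. The reverse count of 1 became 0 with an equal number of peaks, 2 with the stronger 50% and 0 with start sites alone. The count of 3 genes called with ATRA+POM but not DMSO stayed at 3 or 4, and RIGI was among them under all 4 alternatives. IFI6 dropped out with the stronger 50%, and IFIT3 stayed only with windows of 3000 bp. With start sites alone, which cover 36 genes, the count for DMSO and not ATRA+POM became 0, that for ATRA+POM and not POM became 1, that for POM and not ATRA+POM became 2, and that for DMSO and not ATRA became 3. DMSO and not ATRA also became 2 with an equal number of peaks (OAS1 and DHX58) and 9 with the stronger 50%, and only DHX58 of the 9 was among the 6. In that comparison ATRA and not DMSO became 1 with windows of 3000 bp. For locus peaks, requiring an overlap of 50% gave 12 DMSO peaks without a POM counterpart, 24 DMSO peaks without an ATRA+POM counterpart, 26 POM peaks without an ATRA+POM counterpart and 40 DMSO peaks without an ATRA counterpart. An equal number of peaks gave 10 POM peaks without an ATRA+POM counterpart, 2 ATRA peaks without a DMSO counterpart and 15 DMSO peaks without an ATRA counterpart. The gene body alone gave 1 ATRA+POM peak without a POM counterpart and 14 DMSO peaks without an ATRA counterpart. With summit reads, 7 genes in place of 8 were at least 2 times above the median for POM over DMSO (DHX58 was not), 7 in place of 9 were so for ATRA+POM over DMSO (OAS2 and PML were not), OASL was no longer below it (0 genes), and the 4 genes above it for ATRA+POM over POM became 0. The ISRE core was in 21 of 36 promoters when only the 250 bases before the start were read, in place of 24. The cause of these changes was not tested. No paired analysis was possible because each treatment had 1 ChIP library, and no library could be left out for the same reason. Depth limits the ATRA list, and a peak that was not called can still hold signal below the calling limit.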

Other observations

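Away from gene ends, peaks at member loci differed from DMSO in both directions, and a few are given here. A peak upstream of SP100, with its summit at −4438 bp from the start in the POM list, had 339 summit reads with ATRA+POM. It had 388 with POM and 77 with DMSO. These stand at fold enrichments of 51.7, 77.9 and 19.7, and none was called with ATRA. In the flank of TRIM22, an antiviral ubiquitin ligase, a peak had 337 reads with ATRA+POM, 552 in the POM list and 168 with DMSO, at fold enrichments of 19.1, 56.7 and 11.1, and lies within 1000 bp of an end of its relative TRIM5. Inside TRIM22 a second peak went the other way, with no peak with ATRA+POM, 58 reads with POM and 134 with DMSO. Inside GBP5, a peak of 111 reads was called with ATRA+POM and of 150 with POM, and none with ATRA or DMSO. Inside OAS1 a peak had 68 reads with ATRA+POM and 81 with POM, and none was called with ATRA or DMSO. Upstream of IRF1 the strongest locus peak had 78 reads with ATRA+POM and 105 with POM, at summits −4931 and −4921 bp from the nearest start. With DMSO it was a block of 3552 bp with 262 reads at a summit at −7871 bp. That summit lies outside the ATRA+POM and POM peaks, so these reads are from different positions. These were picked after their values were seen.

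Genes outside the list whose promoter holds the ISRE core were also counted. Of 255 such genes with a gene-end peak in ATRA+POM and DMSO, 38 (14.9%) had a ratio at least 2 times above the median of all genes, against 506 of 6462 genes without the core (7.83%). For POM over DMSO the numbers were 29 of 275 (10.5%) with the core and 497 of 7314 (6.80%) without it, while 14 and 553 were at least 2 times below the median. For ATRA over DMSO they were 4 of 238 (1.68%) and 87 of 6474 (1.34%). New calls were less different: of genes with no gene-end peak with DMSO, 14 of 339 (4.13%) with the core and 272 of 7301 (3.73%) without it had one with POM. No test was made, since genes share these libraries and are not replicates.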
